A study of Mus musculus with 12 samples.

Results

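The comparison described here asked whether tumor cells with a RAC1 A159V mutation changed their mRNA levels under anti-PD1 by another amount than wild-type (WT) tumor cells did. It was computed for each gene as the response in A159V (anti-PD1 against IgG) minus the response in WT, on the log2 scale, over all 12 tumor cell samples. Of 33219 features in the count table, 14340 had enough reads to be tested, and these are the members. A difference below 0 means that the gene went up less, or down more, with anti-PD1 in A159V than in WT. A difference above 0 means the opposite.

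MC38 is a mouse colon adenocarcinoma line, and the A159V cells are a homozygous Cas9 knock-in line of it grown from 1 sorted cell, clone 9 unless the study says otherwise, so features of that clone cannot be told apart from the mutation. Male or female C57BL/6 mice aged 6 to 8 weeks carried these cells under the skin and were given 100 μg of either IgG isotype control or the PD1 antibody RMP1-14 every 3 days from day 3. Tumor cells were isolated on day 13 with a magnetic kit that removes other cell types, and polyA-selected RNA was sequenced. Each genotype was studied under IgG and under anti-PD1, which makes 4 groups with 3 samples of separate mice in each, called WT IgG, WT anti-PD1 and likewise for A159V. All 4 groups share the host strain, the implantation and the harvest day.

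PD1 is an inhibitory receptor on activated T cells, and antibodies that block it release T cells against tumor cells, which then see interferon-γ and other T cell products. RAC1 is a small GTPase that drives actin assembly through the WAVE and Arp2/3 complexes and the PAK kinases. Growth factor receptors such as EGFR signal through ERK kinases to immediate early genes, which are transcribed within minutes, and to feedback inhibitors such as Errfi1 and the dual-specificity phosphatases, which switch the receptor or ERK off again.

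Total counts ran from 14053582 to 21949942 per sample, so that 3 counts, taken as the floor of detection, correspond to 0.137 to 0.213 CPM (CPM, counts relative to the TMM-scaled library total). The epithelial markers Epcam, Krt8 and Krt18 were largely absent, with 0 to 2, 2 to 13 and 0 to 17 counts per library. The summed level of all 13 epithelial tumor markers in the count table was 396 to 620 CPM, with Slc3a2 among them at a mean of 494 CPM. 3 libraries stood apart from the other members of their groups. In WT IgG 1 short transcripts were high relative to the other libraries. A slope per doubling of exon length was fitted to the log2 level less each gene's mean over the 12 libraries. It was −0.226 in WT IgG 1, −0.0850 in WT IgG 2 and −0.0219 to 0.0700 elsewhere. The mean ribosomal protein level of WT IgG 1 was 10.4 log2 CPM against 9.18 to 9.67. A159V IgG 5 held 0.832% mitochondrially encoded reads against 2.00% to 4.70% in the other libraries. In sample weights estimated from the spread of all genes, where 1 is average, WT IgG 1 had 0.184, A159V IgG 5 0.147 and WT IgG 4 0.360. For many gene lists, counts are therefore also given without WT IgG 1 and A159V IgG 5 together or without WT IgG 4, and these counts always refer to genes with an unadjusted p under 0.05. RNA of other cell types also differed between the groups. The summed level of 37 T and NK cell markers was 35.6 to 109.6 CPM in WT IgG, 88.1 to 126 in WT anti-PD1 and 16.8 to 22.3 over the 6 A159V samples. Ccl5 was among these markers, at a mean of 27.9 CPM over the 12 samples. The study also measured Ccl5 in cultured tumor cells, so this sum need not be T and NK cell RNA alone. Ptprc, the leukocyte antigen CD45, had a highest value of 0.278 CPM in A159V against 7.46 to 14.2 CPM in WT anti-PD1. The summed level of 15 pan-leukocyte markers did not follow Ptprc. It was 32.4 to 48.6 CPM in WT IgG and 72.5 to 90.5 in WT anti-PD1. In A159V it was 53.9 to 77.6 CPM under IgG and 69.9 to 74.6 under anti-PD1. Less RNA of a cell type can mean fewer of its cells or less RNA in each, and bulk samples cannot tell these apart.

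The test of the genotype difference across all genes called 1 gene, Errfi1, which is 0.00697% of the genes tested (edgeR quasi-likelihood test, Benjamini-Hochberg adjusted p under 0.05 and a log2 difference over 0.3 in size). With Errfi1 included, 18 genes (0.126%) had an adjusted p under 0.1, 15 with a difference below 0 and 3 above. At an unadjusted p under 0.05, 1211 genes (8.44%) had a difference above 0 and 1306 (9.11%) one below 0. Without WT IgG 1 and A159V IgG 5 the same rule gave 1707 genes above (11.7%) and 1717 below (11.7%), and 301 genes passed the adjusted test. Without WT IgG 4 alone 1182 genes passed it (8.07%), 478 above and 704 below 0, and DESeq2 on all 12 samples called 294 (2.05%), 103 above and 191 below. Errfi1 was among the calls in each of these 3 fits.

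More genes had a small p for the response in WT than in A159V. At an unadjusted p under 0.05, 2004 genes (14.0%) were higher and 1933 (13.5%) lower with anti-PD1 in WT, against 361 (2.52%) and 160 (1.12%) in A159V. The 3 IgG and 3 anti-PD1 samples did not overlap for 4956 genes (34.6%) in WT and for 1579 (11.0%) in A159V. The median size of the response was 0.30 in WT against 0.13 in A159V. The difference itself had a median of 0.01, a median size of 0.35 and a median standard error of 0.29. The counts of the 2 genotypes were not compared by a test. The median standard error was 0.21 in each genotype, but the 4 groups shared 1 estimate of the spread per gene. These standard errors therefore do not measure the spread within each genotype. Replicates correlated at 0.964 to 0.985 in WT IgG, 0.989 to 0.990 in WT anti-PD1, 0.972 to 0.992 in A159V IgG and 0.988 to 0.990 in A159V anti-PD1.

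Among the genes with an unadjusted p under 0.05 the WT response was mostly the larger part of the difference. Of the 1306 genes below 0, the WT response was larger in size than the A159V response in 1162 (89.0%) and the 2 had opposite signs in 1209 (92.6%), with medians of 0.61 in WT and −0.21 in A159V. Of the 1211 genes above 0, WT had the larger response in 966 (79.8%) and the signs were opposite in 1069 (88.3%), with medians of −0.61 and 0.18. The gap between the genotypes crossed over with treatment in both sets: the median gap of A159V minus WT was 0.47 under IgG and −0.30 under anti-PD1 for genes below 0, and −0.52 and 0.32 for those above 0. Since these genes were picked by the same contrast, the values describe them and test nothing.

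**Figure D1:**
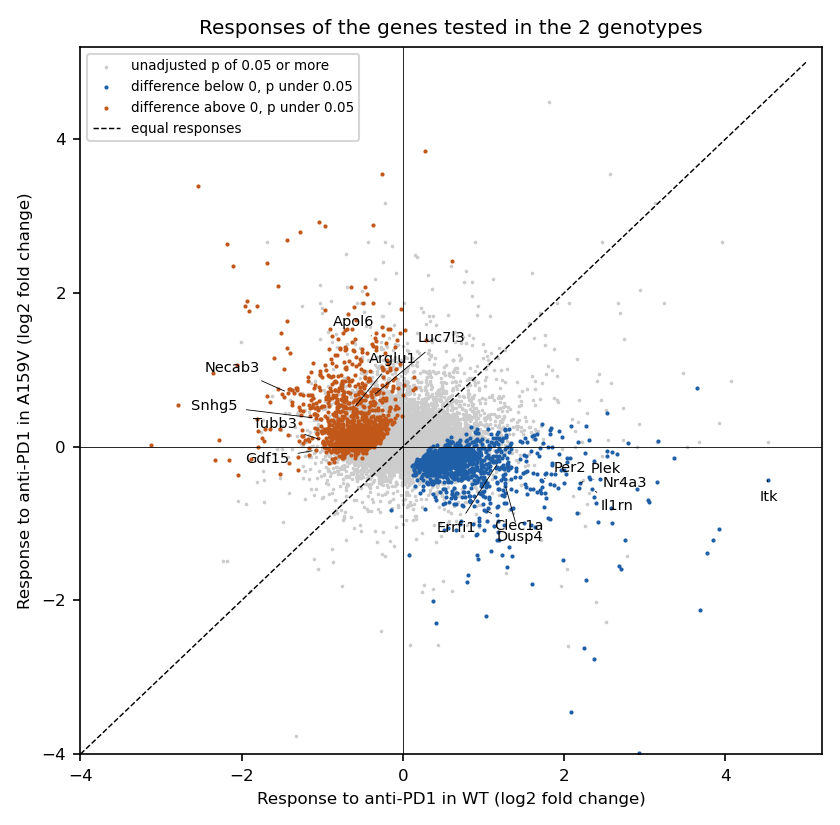
Log2 response to anti-PD1 in WT (horizontal axis) against that in A159V (vertical axis) for each of the 14340 genes tested, 3 of which lie outside the axes. Points on the diagonal have equal responses, and coloured points have an unadjusted p under 0.05 for the difference. Errfi1 lies at 1.19 in WT and −0.19 in A159V, and the cloud is wider along the WT axis.

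The called gene, Errfi1 (ENSMUSG00000028967, chr4:150853919-150868892 in mm10, plus strand, protein coding), encodes MIG6, which binds the activated EGFR kinase and blocks it. Its level was 44.4, 38.7 and 36.9 CPM under IgG and 89.0, 87.0 and 98.3 under anti-PD1 in WT, and 52.3, 58.0 and 48.6 under IgG and 44.6, 47.4 and 47.5 under anti-PD1 in A159V. The 3 WT anti-PD1 samples were the highest of all 12 and overlapped no other group, while in A159V the 3 anti-PD1 samples all lay below the 3 IgG samples by a small margin. Errfi1 rose with anti-PD1 in WT by 1.19 (adjusted p = 0.00302), A159V responded by −0.19 (adjusted p = 1), and the genotypes differed by −1.38 ± 0.17 (adjusted p = 0.0267), where ± gives the standard error of a log2 difference here and in the following. The gap of A159V minus WT was 0.41 under IgG and −0.98 under anti-PD1. The difference kept its sign and a size of −1.51 to −1.31 in 25 other fits and passed the threshold in 13 of them. Leaving out 1 library at a time gave −1.47 to −1.31, with adjusted p of 0.00639 to 0.208 and 3 of the 12 fits past the threshold.

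RefSeq (GRCm38.p6) gives promoters for Errfi1 and for Nr4a3, the gene with the second smallest p, and both are shown because they carry the letters that CREB-type factors are known to bind, TGACGTCA (the cAMP response element, CRE) or its half-site TGACG. The capitals mark these matches on either strand, the sequences end 1 base before the transcript start, and each CRE holds a half-site on both strands.
Errfi1, second start site, chr4:150854820-150855069, plus strand: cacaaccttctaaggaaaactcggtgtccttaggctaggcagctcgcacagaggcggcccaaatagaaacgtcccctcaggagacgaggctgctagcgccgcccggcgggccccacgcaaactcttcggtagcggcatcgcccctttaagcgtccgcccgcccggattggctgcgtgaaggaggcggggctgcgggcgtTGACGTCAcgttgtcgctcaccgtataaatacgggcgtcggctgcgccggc
Nr4a3, chr4:48045055-48045304, plus strand: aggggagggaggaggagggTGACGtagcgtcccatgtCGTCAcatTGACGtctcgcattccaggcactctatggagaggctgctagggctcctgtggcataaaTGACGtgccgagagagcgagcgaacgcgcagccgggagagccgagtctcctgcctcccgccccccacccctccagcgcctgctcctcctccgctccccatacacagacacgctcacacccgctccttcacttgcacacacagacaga
The CRE of Errfi1 begins 51 bases before that start, and the 250 bases before the gene's first start site hold no match. Nr4a3 has half-sites at 231, 213, 205 and 147 bases before its start. Over all 32851 promoters of this table, 1.55% hold a CRE and 17.8% a half-site, and over the 13532 promoters of genes tested here 2.48% and 25.7% do. Among 29 promoters of 23 immediate early genes, 3 held a CRE and 17 (58.6%) a half-site, 6 an E-box (CACGTG, 8.05% of the promoters of genes tested), 5 a CArG box (1.20%) and 1 the AP-1 letters TGANTCA (4.77%). Among 15 promoters of 14 feedback inhibitors, the list of Errfi1, 1 held a CRE and 3 (20.0%) a half-site. The CRE is that of Errfi1 shown above, and its promoter is also among those with a half-site. Among 20 promoters of 15 clock genes 1 held a CRE, 6 a half-site and 6 an E-box. The promoters of Fosl2 and Egfr held none of these letters. These are matches of letters, and nothing in the data measures binding to them.

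Most inhibitors of EGFR and ERK signaling had differences below 0. Of 17 feedback inhibitors tested, 14 had a difference below 0, 9 with an unadjusted p under 0.05, and 0 of those above 0 had one. The list's median was −0.45, from medians of 0.34 in WT and −0.19 in A159V, against 0.01 over all genes tested. Without WT IgG 1 and A159V IgG 5, 7 were below and 0 above, with a median of −0.31. Dusp4, a phosphatase that inactivates ERK in the nucleus, stood at 45.5, 75.5 and 69.6 CPM under IgG and 183, 142 and 131 under anti-PD1 in WT, and 119, 153 and 173 under IgG and 113, 107 and 102 under anti-PD1 in A159V. In WT every anti-PD1 sample exceeded every IgG sample, and in A159V every anti-PD1 sample lay below every IgG sample. The rise of 1.26 in WT passed the test (adjusted p = 0.0188), the A159V response was −0.47, and the difference of −1.73 ± 0.28 (adjusted p = 0.0901) missed the threshold.

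The other inhibitors had larger p. Lrig1, a transmembrane protein that promotes EGFR degradation, had responses of 0.67 in WT and −0.31 in A159V, a difference of −0.98 ± 0.27 (adjusted p = 0.176). Below 0 with an unadjusted p under 0.05 were also Dusp5 (−0.99), the ERK pathway inhibitor Spred2 (−0.75), the ubiquitin ligases Cbl (−1.72), Cblb (−0.52) and Rnf41 (−0.38), which mark receptors for degradation, and Lrig3 (−0.51). The classical ERK targets Dusp6 (−0.17), Spry2 (−0.08) and Spry4 (−0.29) had differences under their standard errors or close to them.

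Egfr, the receptor itself, had the smallest p among the receptors and ligands of its list, and its mRNA was low, at 5.79, 6.73 and 7.13 CPM under IgG and 14.0, 14.4 and 15.2 under anti-PD1 in WT, and 7.72, 10.6 and 6.64 under IgG and 9.10, 5.95 and 7.84 under anti-PD1 in A159V. The 3 WT anti-PD1 values were above all 9 others. Its rise of 1.15 in WT passed the test (adjusted p = 0.0312), the A159V response was −0.13, and the difference was −1.28 ± 0.29 (adjusted p = 0.135). Erbb3, a partner of EGFR without strong kinase activity of its own, had −0.73 (unadjusted p = 0.0233). The EGFR ligands Areg (0.07), Ereg (−0.03), Hbegf (−0.57) and Btc (−0.44) all had an unadjusted p above 0.05, with standard errors of 0.44, 0.46, 0.30 and 0.46, so that changes of that size could not be seen.

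**Figure D2:**
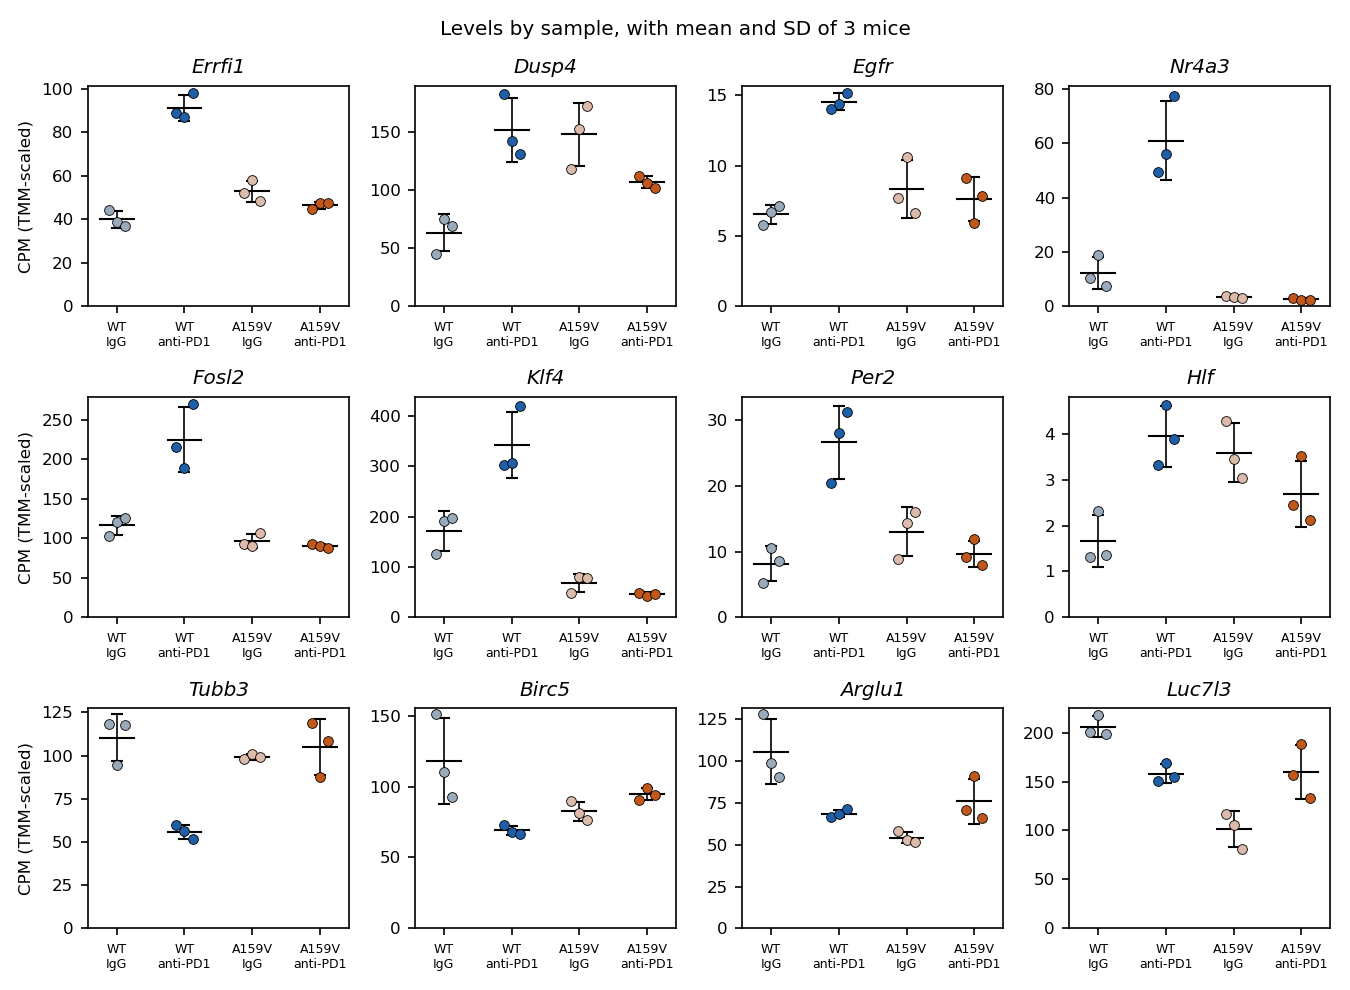
CPM of 12 genes in each of the 12 samples (points), by group, each panel on its own axis that starts at 0. In the panels of Errfi1, Dusp4, Egfr, Nr4a3, Fosl2, Klf4 and Per2 the WT anti-PD1 samples are the highest of WT, and in those of Tubb3, Birc5, Arglu1 and Luc7l3 they are the lowest of WT.

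Immediate early genes encode transcription factors and regulators that cells induce at once after growth factor, stress or receptor signals. Of 29 tested, 27 had a difference below 0, 11 with an unadjusted p under 0.05, and 0 had one above 0. Their median was −0.60, from 0.28 in WT and −0.27 in A159V, and without WT IgG 1 and A159V IgG 5 it was −0.49, with 13 below and 1 above 0.

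Nr4a3, an orphan nuclear receptor that T cell receptor and cAMP signals also induce, had the largest difference of the genes named by smallest p in this list. It stood at 10.4, 18.8 and 7.63 CPM under IgG and 49.5, 56.0 and 77.3 under anti-PD1 in WT, and 3.70, 3.51 and 2.98 under IgG and 2.94, 2.45 and 2.23 under anti-PD1 in A159V. The WT anti-PD1 samples were the highest, and the A159V samples lay below all WT samples in both treatments. Nr4a3 rose by 2.32 in WT (adjusted p = 0.0106), the A159V response was −0.42, and the difference was −2.74 ± 0.42 (adjusted p = 0.0901). Egr3, a zinc finger factor of the Egr family, likewise rose in WT, by 2.54 (adjusted p = 0.0178), with −0.12 in A159V and a difference of −2.66 (adjusted p = 0.153) at a mean of 1.88 CPM.

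Fosl2, a Fos family subunit of the AP-1 factor, was far more abundant, at 103, 121 and 125 CPM under IgG and 216, 189 and 269.9 under anti-PD1 in WT, and 93.5, 89.9 and 107 under IgG and 92.9, 90.1 and 87.7 under anti-PD1 in A159V. WT anti-PD1 was above every other sample, and the A159V groups overlapped. It rose by 0.95 in WT (adjusted p = 0.0166), with −0.10 in A159V and a difference of −1.05 ± 0.20 (adjusted p = 0.120). Klf4, a zinc finger factor that restrains proliferation in colon epithelium, measured 125, 191 and 197 CPM under IgG and 302, 306 and 418 under anti-PD1 in WT, and 48.4, 79.1 and 77.2 under IgG and 49.3, 41.7 and 45.9 under anti-PD1 in A159V. In WT the treatment groups did not overlap, and in A159V the highest value was in IgG. The Klf4 responses were 1.00 in WT (adjusted p = 0.0544) and −0.58 in A159V, a difference of −1.58 ± 0.31 (adjusted p = 0.120).

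Fos itself, the founding AP-1 subunit, was 1059.8, 1117 and 1042 CPM under IgG and 1371, 1269 and 2090.1 under anti-PD1 in WT, and 459, 722 and 622 under IgG and 423, 308 and 586 under anti-PD1 in A159V, with a difference of −1.01 ± 0.35 (adjusted p = 0.224). Its partner Jun had −0.01 ± 0.36, with responses of −0.47 in WT and −0.48 in A159V, so the AP-1 genes did not share a pattern. Btg2 (−1.28), Nr4a2 (−1.04), Egr2 (−1.46), Dusp1 (−1.13), Fosb (−0.96) and Nr4a1 (−0.63) had an unadjusted p under 0.05, and Egr1 (−0.74, unadjusted p = 0.0537) did not. T cells also express several of these genes, and the mean log2 level of T and NK cell markers was highest in WT anti-PD1. Their part in these values was not tested.

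The circadian clock runs on the transcription factors CLOCK and BMAL1, which drive Per and Cry genes whose products inhibit them, and on the output factors Dbp, Tef and Hlf. Of 18 clock genes tested, 16 had a difference below 0, 8 with an unadjusted p under 0.05, and 0 had one above 0. The median was −0.52, from 0.40 in WT and −0.28 in A159V, and −0.36 with 4 below 0 without WT IgG 1 and A159V IgG 5, and −0.71 with 11 below 0 without WT IgG 4. The hour of harvest in each group is not given in the sources used here, and its part was not tested. Per2, a repressor of the clock, stood at 5.25, 10.5 and 8.63 CPM under IgG and 20.4, 28.0 and 31.3 under anti-PD1 in WT, and 8.88, 14.3 and 15.9 under IgG and 9.10, 11.9 and 7.95 under anti-PD1 in A159V. The 3 WT anti-PD1 samples exceeded all others, and A159V IgG and A159V anti-PD1 overlapped. Per2 rose by 1.71 in WT (adjusted p = 0.0254), the A159V response was −0.44, and the difference was −2.15 ± 0.39 (adjusted p = 0.0901).

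Other clock repressors went the same way with smaller values. Cry1 had responses of 0.25 in WT and −0.36 in A159V, a difference of −0.61 ± 0.18 (adjusted p = 0.191), and Cry2 (−0.64) and Per1 (−0.76) had an unadjusted p under 0.05 as well. Among the output factors, Hlf was 1.31, 2.32 and 1.36 CPM under IgG and 3.31, 4.63 and 3.90 under anti-PD1 in WT, and 4.28, 3.46 and 3.03 under IgG and 2.45, 3.51 and 2.11 under anti-PD1 in A159V, and the difference was −1.66 ± 0.41 (adjusted p = 0.153). WT anti-PD1 lay above WT IgG in every sample, while the A159V groups overlapped. Dbp (−1.24) and Tef (−0.85) shared the direction, and Arntl, which encodes BMAL1, had 0.00 and Nr1d1, which encodes REV-ERBα, −0.40 (unadjusted p = 0.212).

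Among the 12 genes with the smallest p below 0 (12 named in each direction by rule), several act at the cell surface or on small GTPases. F2r, the thrombin receptor PAR1, stood at 20.5, 30.3 and 24.4 CPM under IgG and 58.2, 59.2 and 50.6 under anti-PD1 in WT, and 48.8, 58.2 and 40.2 under IgG and 39.5, 43.6 and 45.0 under anti-PD1 in A159V. Only in WT were the treatment groups apart, and its rise of 1.16 there passed the test (adjusted p = 0.0166), against −0.20 in A159V and a difference of −1.36 ± 0.24 (adjusted p = 0.0901). Prex1, a nucleotide exchange factor that activates RAC proteins, was 0.929, 1.10 and 1.25 CPM under IgG and 4.09, 4.29 and 3.12 under anti-PD1 in WT, and 4.28, 3.84 and 4.46 under IgG and 3.54, 4.84 and 4.12 under anti-PD1 in A159V. Its WT IgG samples were the lowest of the 12, and WT anti-PD1 reached the range of both A159V groups. The rise of 1.80 in WT (adjusted p = 0.0129) faced −0.01 in A159V, a difference of −1.81 ± 0.32 (adjusted p = 0.0901). Rhou, an atypical small GTPase related to CDC42, was 14.0, 16.5 and 14.3 CPM under IgG and 25.1, 25.6 and 26.7 under anti-PD1 in WT, and 27.9, 27.0 and 27.2 under IgG and 25.8, 24.7 and 24.9 under anti-PD1 in A159V. In the same way WT anti-PD1 reached the A159V range, with a rise of 0.79 in WT (adjusted p = 0.0166), −0.12 in A159V and a difference of −0.91 ± 0.16 (adjusted p = 0.0901).

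Stra6, the receptor for retinol-binding protein, was 3.88, 4.59 and 3.41 CPM under IgG and 15.6, 11.2 and 12.5 under anti-PD1 in WT, and 7.46, 3.79 and 8.40 under IgG and 4.25, 4.78 and 5.40 under anti-PD1 in A159V. WT anti-PD1 was above all other samples, and the difference was −2.17 ± 0.38 (adjusted p = 0.0901). Tcn2, which carries vitamin B12 in blood, had mean levels in WT of 10.6 ± 1.20 CPM under IgG and 20.3 ± 3.96 under anti-PD1, and in A159V of 22.4 ± 2.61 and 16.6 ± 2.43 (SD, n = 3), and a difference of −1.37 ± 0.25 (adjusted p = 0.0901). Irf2bpl, a nuclear regulator, had responses of 0.87 (adjusted p = 0.0307) and −0.33, a difference of −1.19 ± 0.21 (adjusted p = 0.0901).

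Plek, Il1rn and Clec1a, also among the 12, are known from myeloid or endothelial cells and were at low levels. Plek, a PKC substrate of platelets and leukocytes, was 0.656, 1.16 and 0.652 CPM under IgG and 3.78, 4.69 and 2.90 under anti-PD1 in WT, and 2.33, 2.16 and 1.33 under IgG and 1.47, 1.44 and 1.28 under anti-PD1 in A159V, with a difference of −2.68 ± 0.46 (adjusted p = 0.0901). Il1rn, which encodes the IL-1 receptor antagonist, was 0.273, 0.306 and 0.251 CPM under IgG and 1.76, 1.34 and 1.17 under anti-PD1 in WT, and 3.12, 3.17 and 1.91 under IgG and 1.14, 2.45 and 2.00 under anti-PD1 in A159V, with a difference of −2.90 ± 0.52 (adjusted p = 0.0901). Both were higher in every WT anti-PD1 sample than in any WT IgG sample, and Il1rn in WT stayed below most A159V samples in both treatments. Clec1a, a C-type lectin receptor, had a difference of −1.82 ± 0.33 (adjusted p = 0.0901), with 1.00 in WT and −0.82 in A159V. The mean log2 level of leukocyte markers was highest in WT anti-PD1, while their summed level overlapped between WT anti-PD1 and A159V. The part of leukocyte RNA in Plek and Il1rn was not tested.

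On the other side, Tubb3, a β-tubulin best known from neurons and also made by tumor cells, was the only named gene above 0 with an adjusted p under 0.1. It stood at 119, 94.6 and 118 CPM under IgG and 59.5, 56.1 and 51.5 under anti-PD1 in WT, and 97.7, 101 and 99.4 under IgG and 119, 87.3 and 108 under anti-PD1 in A159V. WT anti-PD1 averaged 55.7 ± 4.03 CPM (SD, n = 3) and overlapped no other group, the lowest other sample being at 87.3. Tubb3 fell by 0.99 in WT (adjusted p = 0.0165), the A159V response was 0.08, and the difference was 1.06 ± 0.20 (adjusted p = 0.0901). Of 15 tubulin genes, 13 had a difference above 0, 2 with an unadjusted p under 0.05, the other being the centrosomal γ-tubulin Tubg1 (0.51).

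Several of the next genes above 0 belong to RNA metabolism. Arglu1, a splicing and transcription cofactor, was 128, 98.8 and 90.5 CPM under IgG and 66.5, 68.5 and 71.2 under anti-PD1 in WT, and 58.2, 52.8 and 51.8 under IgG and 70.8, 91.2 and 66.1 under anti-PD1 in A159V. The groups were apart in both genotypes and in opposite directions, lower with anti-PD1 in WT (−0.62) and higher in A159V (0.49), and neither response passed the adjusted test. The Arglu1 difference was 1.11 ± 0.22 (adjusted p = 0.127). Luc7l3, a splicing factor of the U1 particle, behaved alike at 201, 218 and 199 CPM under IgG and 151, 169 and 155 under anti-PD1 in WT, and 117, 106 and 81.1 under IgG and 157, 188 and 134 under anti-PD1 in A159V, with responses of −0.38 and 0.65 and a difference of 1.03 ± 0.22 (adjusted p = 0.135). Here too no IgG sample overlapped the anti-PD1 samples of its genotype. Exosc8, a subunit of the RNA exosome, had a difference of 0.98 ± 0.22 (adjusted p = 0.135) and was likewise apart in opposite directions.

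The others were mixed. Snhg5, a host transcript of snoRNAs, was 109.8, 69.8 and 61.4 CPM under IgG and 40.6, 40.0 and 34.0 under anti-PD1 in WT, and 42.1, 32.1 and 30.8 under IgG and 39.4, 51.9 and 44.3 under anti-PD1 in A159V with a difference of 1.44 ± 0.29 (adjusted p = 0.135), and its reads may be shared with the snoRNAs inside it. WT IgG 1 was its highest sample. Apol6, an apolipoprotein L gene, was higher with anti-PD1 in every A159V sample, with 1.69 to 2.71 CPM in A159V IgG and 4.62 to 8.44 in A159V anti-PD1, responses of −0.35 in WT and 1.41 in A159V, and a difference of 1.76 ± 0.38 (adjusted p = 0.135). Nkiras1, an inhibitor of NF-κB, had 1.02 ± 0.22 (adjusted p = 0.135), Hirip3, a histone chaperone, 0.75 ± 0.17 (adjusted p = 0.135), and Zfp639, a zinc finger protein, 0.86 ± 0.20 (adjusted p = 0.135). Necab3 (2.12) and Tex13b (0.96) completed the 12, together with the snoRNA gene AF357399 (2.05), and apart from Tubb3 these 12 had adjusted p of 0.127 to 0.135.

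By size rather than p, the named genes rested on few reads or on 1 library. The 6 with the largest difference above 0 were Cpxm1, Mmp3, Postn, Serpina3n, H2-Ab1 and Loxl1, and each had its highest value in WT IgG 1, as in Postn, a matrix protein of stromal cells, at 23.2, 1.96 and 7.78 CPM under IgG and 3.05, 4.63 and 3.62 under anti-PD1 in WT, and 0.740, 2.31 and 0.478 under IgG and 4.09, 2.55 and 8.73 under anti-PD1 in A159V. Its difference was 3.65 ± 1.06 (adjusted p = 0.190). Mmp3 (−1.89) and Loxl1 (−0.18) turned to below 0 in the fit with sample quality weights. That fit gives less weight to WT IgG 1 (0.184), A159V IgG 5 (0.147) and WT IgG 4 (0.360) and more to WT IgG 2 (4.21). Which library turned the sign was not tested. The 6 largest below 0 were Crocc2, Atp2a1, Selplg, Dock2, Abca9 and Abca8a. Of these, Atp2a1, the calcium pump of fast skeletal muscle, was 0.259, 6.24 and 17.4 CPM in WT anti-PD1 and at most 1.44 elsewhere, so that it was high in 2 of 3 mice, the 2 in which the muscle genes Acta1, Myh1 and Tnnt3 were high too. Selplg and Dock2 are leukocyte genes whose A159V means lay at or near the floor, and no fold is given for them.

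Transcript length and class went with the difference over the whole set. The genes were split into 5 equal classes by exon length. Among the 2846 genes of the shortest class (54 to 2108 bases), 17.1% had a difference above 0 and 2.35% one below 0 at an unadjusted p under 0.05. In the longest class (7265 to 123179 bases) these shares were 1.72% and 17.4%, and the median difference went from 0.39 to −0.31. Spearman's correlation across 14216 genes with exon length was −0.415 for the difference, 0.441 for the WT response and −0.0910 for the A159V response, as a description across genes of the same libraries, which are not independent replicates. The slopes of WT IgG 1 and WT IgG 2 given above enter both the WT response and the difference. Removing each library's length trend left 1 call, Errfi1 at −1.44 (adjusted p = 0.00334).

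Small noncoding RNA genes leaned above 0. Of 115 snoRNA genes tested, 50 had a difference above 0 at an unadjusted p under 0.05 and 0 one below, with medians of −0.45 in WT, 0.65 in A159V and 1.03 for the difference. snoRNAs guide chemical modification of ribosomal RNA and mostly lie in introns of other genes, and they lack the polyA tail that this library type selects. Summed over the class they made up 317 to 369.9 CPM under IgG and 236 to 261 under anti-PD1 in WT, and 129.6 to 216 and 177 to 278 in A159V. The WT groups did not overlap, and in A159V only the highest IgG sample, A159V IgG 5, reached into the anti-PD1 range. Processed pseudogenes (30 above and 1 below of 125), lincRNAs (49 and 3 of 303) and miRNA genes (11 and 1 of 49) leaned the same way, against 957 and 1281 of 12954 protein coding genes. Reads of pseudogenes cannot be told apart from those of their parent genes with certainty, and antisense genes (34 and 5 of 337) depend on a strand setting not given in the sources used here.

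**Figure D3:**
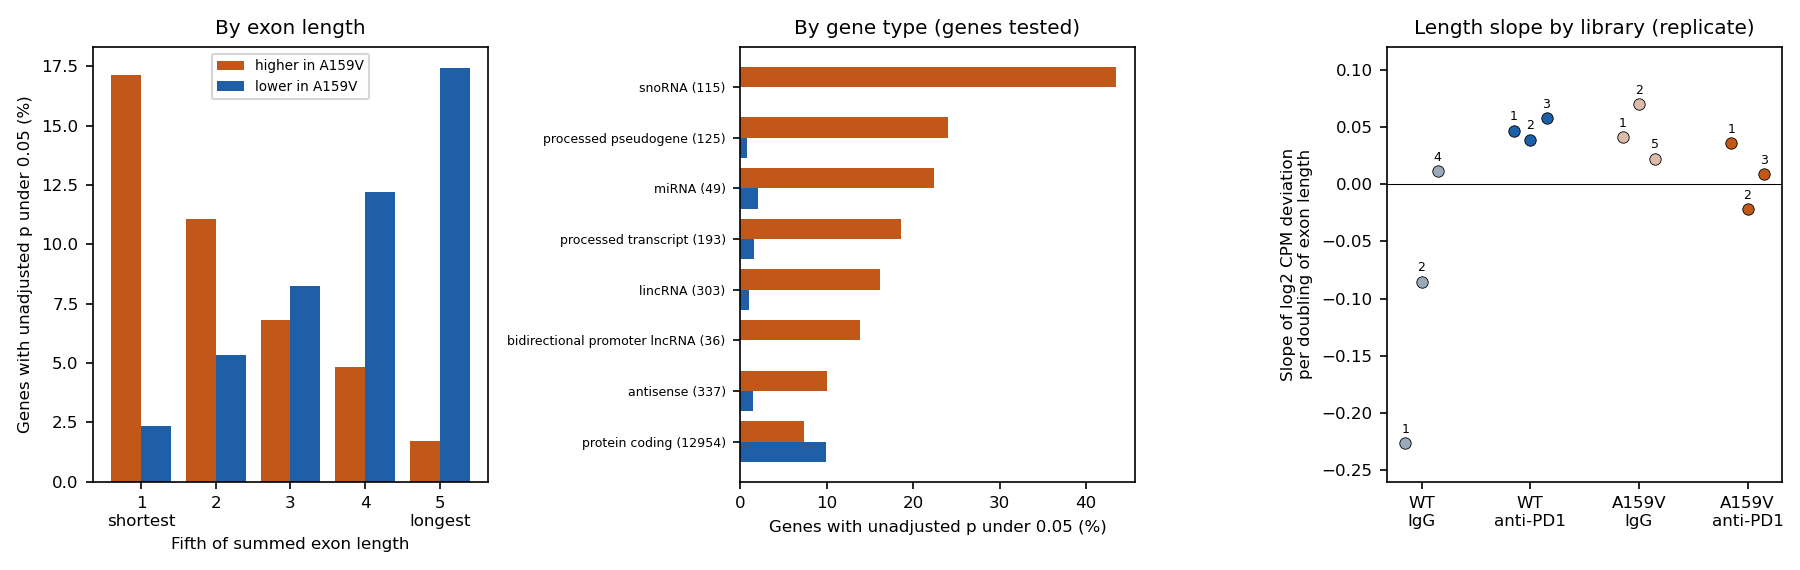
Left, percent of genes with an unadjusted p under 0.05 above and below 0 in each of 5 classes of exon length. Middle, the same by gene type. Right, slope on log2 exon length of the log2 level less each gene's mean over the 12 libraries. It is given for each library, and WT IgG 1 is the lowest at −0.226. The share above 0 declines from 17.1% to 1.72% with length while the share below 0 climbs from 2.35% to 17.4%.

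Genes of cell division leaned above 0. Of 43 DNA replication genes, 38 had a difference above 0, 13 with an unadjusted p under 0.05, and 0 had one below, with a median of 0.32 (−0.38 in WT and −0.04 in A159V). Of 40 mitosis genes, 31 were above 0, 9 with an unadjusted p under 0.05 and 0 below, with a median of 0.28. Without WT IgG 1 and A159V IgG 5 the counts were 12 above and 0 below for replication and 16 above and 1 below for mitosis, with a median of 0.23 in each. Without WT IgG 4 they were 19 above and 2 below for replication and 11 above and 1 below for mitosis. Birc5, which encodes the mitotic protein survivin, was 151, 110.4 and 92.5 CPM under IgG and 72.7, 68.1 and 66.7 under anti-PD1 in WT, and 89.7, 81.4 and 76.6 under IgG and 90.4, 99.1 and 94.2 under anti-PD1 in A159V. WT anti-PD1 was the lowest group and overlapped no other, and WT IgG 1 was the highest sample. Birc5 fell in WT (−0.77, adjusted p = 0.0492), the A159V response was 0.20, and the difference was 0.97 ± 0.22 (adjusted p = 0.135).

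The kinases Cdk1 (0.83 ± 0.22 (adjusted p = 0.175)) and Aurkb (0.59 ± 0.18 (adjusted p = 0.204)), both needed for mitosis, had the same order, and their WT responses of −0.80 (adjusted p = 0.0438) and −0.73 (adjusted p = 0.0307) passed the test. In the replication list, thymidylate synthase Tyms had 0.83 ± 0.22 (adjusted p = 0.175), cyclin E1 Ccne1 0.81 ± 0.22 (adjusted p = 0.175) and thymidine kinase Tk1 0.68 ± 0.19 (adjusted p = 0.178), with a WT response of −0.66 that passed (adjusted p = 0.0473). Myc, a driver of growth genes, had −0.22 ± 0.26.

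Ribosomal protein, respiratory chain and proteasome genes were above 0 nearly throughout, and the size and counts moved with the WT IgG libraries used. All 66 cytosolic ribosomal protein genes had a difference above 0, 7 with an unadjusted p under 0.05, with a median of 0.54 that was 0.15 without WT IgG 1. Of 73 nuclear respiratory chain genes, 70 were above 0, 22 with an unadjusted p under 0.05, and the median went from 0.58 to 0.23 without that library. Of 31 proteasome genes, 30 were above 0, 9 with an unadjusted p under 0.05, with a median of 0.47 and of 0.25 without it. Without both WT IgG 1 and A159V IgG 5 the counts were 5, 16 and 8 above 0. Without WT IgG 4 they were 54, 54 and 24, with medians of 0.75, 0.79 and 0.64. With the length trend removed they were 2, 11 and 5, with medians of 0.24, 0.21 and 0.32. Rps24, a protein of the small subunit, showed the pattern at 2179, 1263 and 918 CPM under IgG and 849, 915 and 751 under anti-PD1 in WT, and 976, 848 and 819 under IgG and 959, 851 and 1006 under anti-PD1 in A159V, where WT IgG 1 was more than any other sample by a wide margin. Rpl24, with the smallest p in this list, had only 2.02 to 3.81 CPM in A159V IgG, and its counts are uncertain because near-identical copies can take its reads.

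Ndufb2, a subunit of respiratory complex I, was 13.2, 12.1 and 10.1 CPM under IgG and 8.49, 8.85 and 7.96 under anti-PD1 in WT, and 5.98, 6.72 and 5.42 under IgG and 7.30, 9.41 and 9.18 under anti-PD1 in A159V with a difference of 0.99 ± 0.24 (adjusted p = 0.148). Its treatment groups were apart in both genotypes, lower with anti-PD1 in WT and higher in A159V. Mitochondrially encoded genes had a median of 0.87 over 13, 3 of them above 0 with an unadjusted p under 0.05, and of 0.21 without WT IgG 1 and A159V IgG 5. For the oxidase subunit mt-Co2 the levels were 9133, 6085 and 5111 CPM under IgG and 4229, 3187 and 3986 under anti-PD1 in WT, and 2775, 2636 and 1461 under IgG and 4382, 3980.5 and 2594 under anti-PD1 in A159V, highest in WT IgG 1 and lowest in A159V IgG 5, with a difference of 1.51 ± 0.40 (adjusted p = 0.173).

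Among markers of other cells, T and NK cell genes leaned below 0. Of 26 tested, 22 were below 0, 7 with an unadjusted p under 0.05, and 0 were above 0 with one. In 19 of the 26 at least 1 group mean lay under the floor of 3 counts per library, so the fitted median of −2.69 depends on the prior count and with those means set to the floor it was −2.28. Without WT IgG 1 and A159V IgG 5, 9 of 29 were below 0 with an unadjusted p under 0.05. Cd8a, the coreceptor of cytotoxic T cells, was 0.328, 0 and 0.0502 CPM under IgG and 1.71, 5.70 and 2.00 under anti-PD1 in WT, and 0, 0.0480 and 0 under IgG and 0.0545, 0 and 0 under anti-PD1 in A159V. It was above the floor in every WT anti-PD1 sample, in WT IgG 1 and in no A159V sample, and its rise in WT had an adjusted p of 0.0301. Gzmb, which encodes the killing protease granzyme B, was 1.53, 0.122 and 3.81 CPM under IgG and 10.5, 16.2 and 10.8 under anti-PD1 in WT, and 0, 0 and 0.266 under IgG and 0.109, 0.0532 and 0.556 under anti-PD1 in A159V, and no other group reached the WT anti-PD1 range. Il2rb, a subunit of the IL-2 and IL-15 receptors, was 1.15, 0.551 and 2.61 CPM under IgG and 8.64, 13.1 and 8.74 under anti-PD1 in WT, and 2.01, 1.73 and 1.43 under IgG and 2.18, 0.744 and 2.45 under anti-PD1 in A159V. It was the highest in WT anti-PD1 and overlapped between the A159V groups, with responses of 2.79 (adjusted p = 0.0301) and 0.05 and a difference of −2.74 ± 0.68 (adjusted p = 0.153).

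Pdcd1, which encodes PD1 itself, the target of the antibody, was 0.437, 0.0612 and 0.201 CPM under IgG and 1.66, 2.48 and 1.34 under anti-PD1 in WT, and 0.635, 0.768 and 0.266 under IgG and 0.272, 0.532 and 0.334 under anti-PD1 in A159V. Every WT anti-PD1 sample was above every other sample, the rise of 2.90 in WT passed the test (adjusted p = 0.0369), and the difference was −3.45 ± 0.78 (adjusted p = 0.135). Ptprc was 0.929, 0.184 and 2.81 CPM under IgG and 9.01, 14.2 and 7.46 under anti-PD1 in WT, and 0, 0.0960 and 0.213 under IgG and 0.0545, 0.0532 and 0.278 under anti-PD1 in A159V, and both A159V means lay under the floor. The other pan-leukocyte genes leaned the same way, with 13 of 14 below 0, 6 with an unadjusted p under 0.05, and a median of −1.29 (−1.30 with means at the floor). In the fit without WT IgG 1 and A159V IgG 5, 7 of 15 were counted below 0. With the leukocyte marker score of each library as a covariate, 177 genes above and 272 below 0 had an unadjusted p under 0.05 and 0 were called. This score itself differs between the groups. In that fit 3 feedback inhibitors, 12 immediate early genes (median −1.22), 4 clock genes and 0 of the T and NK cell markers (median −0.31) were below 0 at that p, and 3 replication and 2 mitosis genes were above 0. It counted 0 of the ribosomal protein, respiratory chain, proteasome, GBP and IRG and MHC class I genes in either direction.

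Myeloid and stromal markers were less uniform. Of 17 macrophage markers, 4 were below and 2 above 0 with an unadjusted p under 0.05, with Cd68 at −0.72 and Apoe at 1.31. Among dendritic cell markers Irf8, a factor of dendritic cells and monocytes, was 1.04, 1.53 and 2.31 CPM under IgG and 6.06, 7.91 and 3.79 under anti-PD1 in WT, and 2.06, 1.92 and 2.29 under IgG and 1.80, 1.86 and 1.72 under anti-PD1 in A159V, with a difference of −2.07 ± 0.45 (adjusted p = 0.135). WT anti-PD1 exceeded all other samples. Itgax, which encodes CD11c, had −1.30 and Flt3 1.66, so the 8 tested markers did not share a direction. With an unadjusted p under 0.05 and below 0 were 1 of 5 neutrophil markers (Clec4e, −1.31), 1 of 6 B cell markers (Pax5, −1.28) and 1 of 8 endothelial markers (Ramp2, −0.77). Of the 18 fibroblast markers, 3 were above and 2 below 0 at that p, and 1 and 3 without WT IgG 1 and A159V IgG 5, with summed levels of 625 to 1843 CPM in WT and 294 to 432 in A159V, and Col1a1, the main fibrillar collagen, had 1.33 ± 0.64 (adjusted p = 0.297). Of the 9 skin, fat and muscle markers Myh1, the fast myosin heavy chain, had an unadjusted p under 0.05, from WT anti-PD1 2 and 3.

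Interferon-inducible GTPases leaned above 0. The guanylate-binding proteins (GBPs) and immunity-related GTPases (IRGs) are GTPases that cells make under interferon-γ to attack intracellular microbes. All 14 tested had a difference above 0, 6 with an unadjusted p under 0.05, with a median of 0.69 from −0.09 in WT and 0.48 in A159V, and without WT IgG 1 and A159V IgG 5 there were 9 with a median of 0.51. Gbp4 was 23.9, 26.2 and 26.3 CPM under IgG and 22.7, 21 and 16.1 under anti-PD1 in WT, and 5.34, 6.58 and 5.37 under IgG and 13.1, 7.55 and 8.40 under anti-PD1 in A159V. Its A159V anti-PD1 samples were above the A159V IgG samples and below all WT samples, with responses of −0.35 and 0.75 and a difference of 1.10 ± 0.29 (adjusted p = 0.173). Igtp, an IRG, was 112 to 128 CPM in A159V IgG and 145 to 187 in A159V anti-PD1, and 161 to 232 and 117 to 165 in WT, with a difference of 0.87 ± 0.24 (adjusted p = 0.175). Tgtp1 (1.02) and Tgtp2 (0.91) are near-identical copies, so their counts are uncertain.

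The interferon-γ receptor chain Ifngr1 (−0.29 ± 0.17) had an unadjusted p above 0.05, Irf1, a factor induced by interferon-γ, had 0.76 ± 0.23 (adjusted p = 0.204), and Stat3, a transducer of IL-6 type cytokines, −0.81 ± 0.23 (adjusted p = 0.179). Of 35 type I interferon antiviral genes, 20 were above and 15 below 0, 5 and 1 of them with an unadjusted p under 0.05, with a median of 0.04, and without WT IgG 4 the counts were 12 and 3. Of 22 MHC class I and peptide loading genes, 16 were above and 6 below 0, 7 and 0 of them with an unadjusted p under 0.05, of which Psmb8, Psmb9, Psmb10, Psme1 and Psme2 are subunits or activators of the immunoproteasome, whereas the heavy chain H2-K1 (0.17 ± 0.22) and B2m (0.30 ± 0.30) had an unadjusted p above 0.05. All 9 MHC class II genes were above 0, with a median of 1.34 that was 0.63 without WT IgG 1. At an unadjusted p under 0.05 3 were above 0, against 0 without WT IgG 1 and 6 without WT IgG 4. H2-Aa was 48.8, 20.6 and 21 CPM under IgG and 13.6, 18.9 and 2.39 under anti-PD1 in WT, and 1.32, 3.27 and 2.13 under IgG and 5.88, 1.54 and 3.84 under anti-PD1 in A159V, and WT IgG 1 was its highest sample.

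Chemokines, which attract leukocytes, were split. Of 10 CXC and CX3C ligands, 5 were above and 1 below 0 with an unadjusted p under 0.05, but without WT IgG 1 and A159V IgG 5 the counts were 0 and 1, and they were 7 and 1 without WT IgG 4. Cx3cl1, which attracts T and NK cells, was 22.4, 26.5 and 33.9 CPM under IgG and 45.3, 34.3 and 47.9 under anti-PD1 in WT, and 18.9, 21.2 and 21.6 under IgG and 13.6, 19.1 and 13.7 under anti-PD1 in A159V. It was higher with anti-PD1 in every WT sample and overlapped in A159V, with a difference of −1.03 ± 0.27 (adjusted p = 0.172). Cxcl9 (1.14, unadjusted p = 0.0475) and Cxcl10 (0.73, unadjusted p = 0.0319), both induced by interferon-γ, were above 0, and in Cxcl10 WT IgG 1 was the highest sample at 1289 CPM. Of 10 CC ligands, 3 were above and 0 below 0 with an unadjusted p under 0.05, while Ccl2 (0.38 ± 0.33) and Ccl5 (0.28 ± 0.47) had an unadjusted p above 0.05. Leaving out WT IgG 1 and A159V IgG 5, 1 were above and 3 below 0 of 12, with a median of −0.22, so the direction turned, and leaving out WT IgG 4 the counts were 4 and 1.

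Among checkpoint genes, Cd274, which encodes the PD1 ligand PD-L1, had 0.00 ± 0.30, with responses of 0.29 in WT and 0.30 in A159V. The B7 family member Cd276 had −0.82 ± 0.24 (adjusted p = 0.193) and Ido1, a tryptophan-degrading enzyme, 1.79 ± 0.53 (adjusted p = 0.193), with Ido1 lower in each WT anti-PD1 sample than in each WT IgG sample and higher in each A159V anti-PD1 sample than in each A159V IgG sample. In the NF-κB list, Rel was −1.52, the inhibitor Nfkbia 0.71 and Birc2 0.49, 3 of 24 with an unadjusted p under 0.05.

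Adhesion and matrix genes leaned below 0 in the main fit. Of 15 integrins 5 were below and 0 above with an unadjusted p under 0.05, with Itgb5, the β5 subunit that binds vitronectin, at 48.5, 67.4 and 53.9 CPM under IgG and 78.3, 85.2 and 101 under anti-PD1 in WT, and 83.5, 78.9 and 92.7 under IgG and 61.2, 68.5 and 64.8 under anti-PD1 in A159V. It was apart in both genotypes, upwards in WT (0.64) and downwards in A159V (−0.39), with a difference of −1.03 ± 0.21 (adjusted p = 0.133). Of 21 collagens 5 were below and 1 above at that p, 9 and 1 without WT IgG 4, and Col4a1 (−1.38 ± 0.36 (adjusted p = 0.171)) and Col4a2 (−1.21 ± 0.32 (adjusted p = 0.175)), the paired chains of basement membrane collagen, were apart in both genotypes in the same way. Of 13 matrix metalloproteinases and TIMPs 4 were below and 1 above at that p, 7 and 2 without WT IgG 4, including Timp2 (−0.59) and Mmp11 (−1.18), and Mmp12 lay near the floor. YAP and TEAD targets, read out when cells spread, had 7 below and 1 above 0 of 15 at that p, with a median of −0.41, and 5 and 1 without WT IgG 1 and A159V IgG 5, led by Amotl2 (−0.70), tissue factor F3 (−0.65) and Ptpn14 (−0.79). The exception, Ankrd1, had 0.71. With the length trend removed, 6 collagens were below and 3 above 0 at that p (median −0.03), and 4 and 1 metalloproteinases and TIMPs (median −0.63). With the leukocyte covariate the counts were 3 and 2 for collagens (median 0.39) and 0 and 2 for metalloproteinases and TIMPs (median 0.09), so both medians turned to above 0. In these 2 fits the counts were 5 and 1, then 2 and 0 for integrins, and 5 and 1, then 1 and 0 for YAP and TEAD targets.

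The effectors of RAC1 leaned weakly the same way in the main fit. Of 24 genes of the WAVE and Arp2/3 complexes, PAK kinases and related effectors, 19 were below 0, 5 with an unadjusted p under 0.05 and 0 above, with a median of −0.09. The count below 0 was 8, with a median of −0.22, without WT IgG 1 and A159V IgG 5. It was 4, with a median of −0.18, with the length trend removed. With the leukocyte covariate it was 1, with a median of −0.05. Cyfip2, a WAVE complex subunit that binds active RAC1, was 3.33, 7.40 and 5.57 CPM under IgG and 11.6, 10.9 and 10.4 under anti-PD1 in WT, and 13.3, 16.1 and 16.7 under IgG and 9.59, 12 and 11.9 under anti-PD1 in A159V. WT anti-PD1 was above WT IgG in every sample and A159V anti-PD1 below A159V IgG in every sample, with responses of 1.01 and −0.47 and a difference of −1.48 ± 0.33 (adjusted p = 0.135). Iqgap1 (−0.79), Wasf2 (−0.69), Cyfip1 (−0.53) and Wasf1 (−0.54) were the others. Rac1 itself was 511, 402 and 441 CPM under IgG and 451, 403 and 414 under anti-PD1 in WT, and 456, 458 and 345 under IgG and 378, 334 and 404 under anti-PD1 in A159V, with a difference of −0.08 ± 0.21 and overlapping groups in both genotypes. Counts per gene do not show the A159V base change.

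Metabolic and stress lists were mixed. Glycolysis had 0 of 24 genes with an unadjusted p under 0.05 and a median of 0.04. At that p sterol and fatty acid synthesis had 1 above and 4 below 0 of 34, HIF targets 2 and 3 of 22, p53 targets 2 and 3 of 18, mTORC1 and its regulators 1 and 4 of 26, ER chaperones 0 and 4 of 22 and ribosome biogenesis 2 and 1 of 30, with a median of 0.31. Without WT IgG 4 the counts above and below 0 were 3 and 11 for sterol and fatty acid synthesis, 6 and 7 for mTORC1 and 10 and 3 for ribosome biogenesis. Leaving out WT IgG 1 and A159V IgG 5 they were 0 and 9 for ER chaperones and 5 and 4 for p53 targets. The ATF4 program had 4 above and 0 below of 33, with the stress cytokine Gdf15 at 95.4, 85.7 and 67.0 CPM under IgG and 44.7, 35.9 and 37.1 under anti-PD1 in WT, and 85.8, 75.2 and 109 under IgG and 79.8, 89.6 and 92.5 under anti-PD1 in A159V. Gdf15 fell in WT (−1.07, adjusted p = 0.0188) to a range that overlapped no other group, the A159V response was −0.04, and the difference was 1.03 ± 0.24 (adjusted p = 0.135). Heat shock genes had a median of 0.35, with 3 above and 0 below of 20 at an unadjusted p under 0.05, including Hspa1b (1.73 ± 0.80), whose reads can be shared with its near-identical copy Hspa1a. In sphingolipid synthesis 22 of 25 genes were below 0, 4 with an unadjusted p under 0.05 (7 without WT IgG 1 and A159V IgG 5), with a median of −0.24, led by the sphingolipid-degrading enzymes Smpd1 (−0.76 ± 0.20 (adjusted p = 0.173)) and Sgpl1 (−0.80 ± 0.22 (adjusted p = 0.176)).

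**Figure D4:**
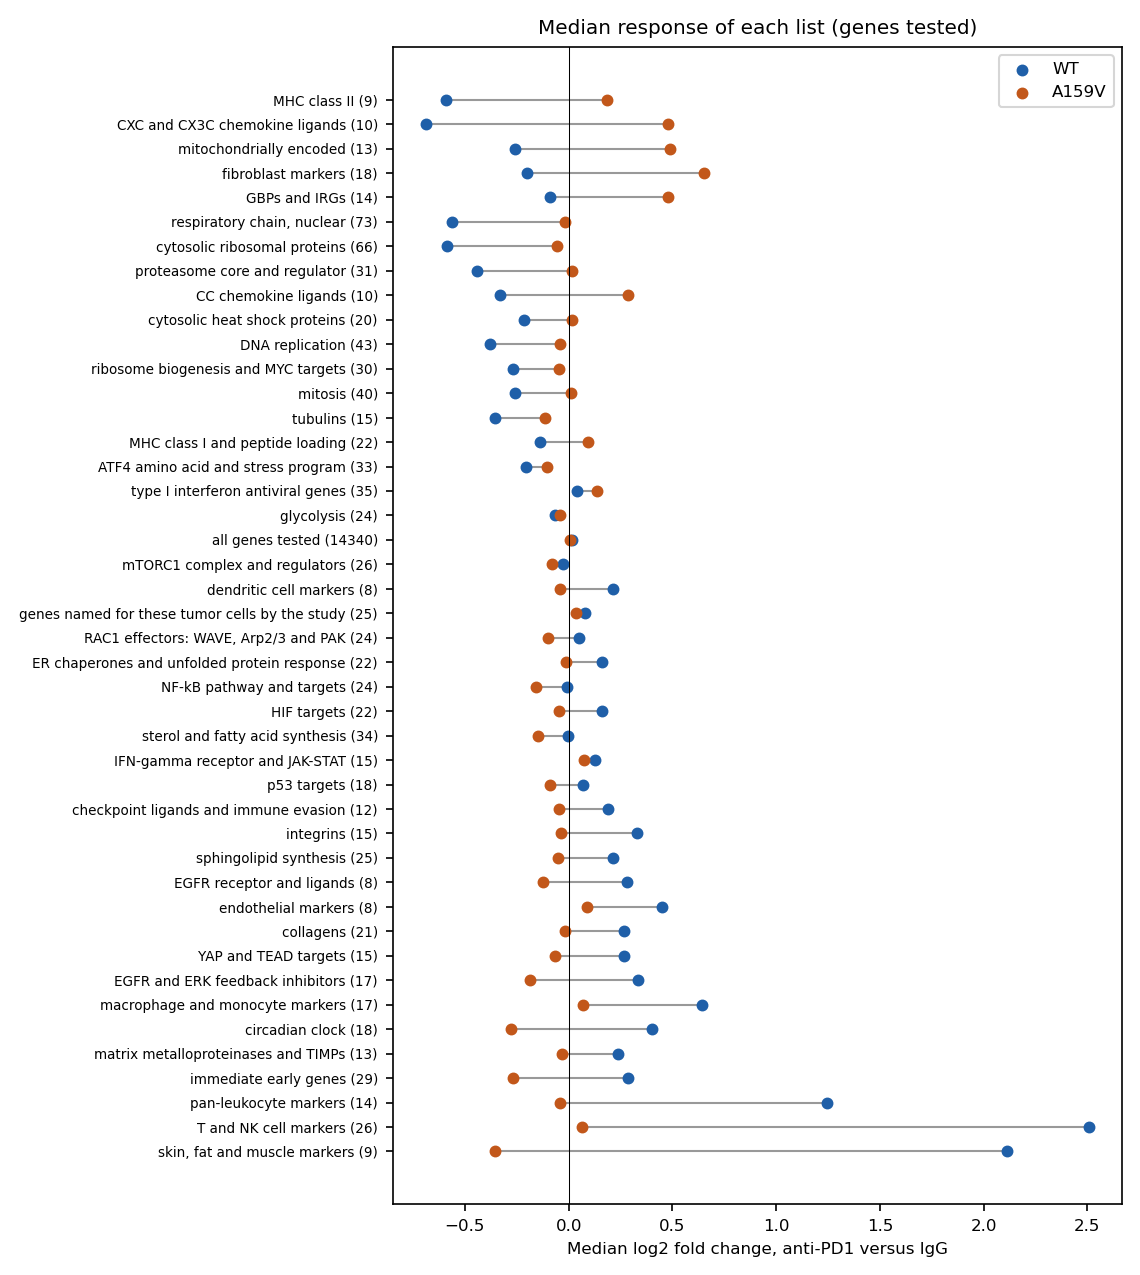
Median log2 response to anti-PD1 over the genes of each list with at least 8 genes tested, WT in blue and A159V in orange. The A159V points lie near 0 in most lists, while WT is at 2.51 for T and NK cell markers, 0.40 for clock genes and −0.58 for ribosomal proteins.

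Of the genes that the study names for these tumor cells, 26 were listed here, Rac1 itself and genes it measured by RT-qPCR among them. Others, such as Egfr, Cdk1 and Prex1, are described above. Some were chosen on these same samples, so the list is not independent. Of the 25 tested, 13 had a difference below 0 and 12 above, with a median of −0.05, and 4 were above (Gbp4, Cxcl10, H2-Aa and Ccl8) and 1 below 0 (St3gal2) at an unadjusted p under 0.05. These counts were 1 and 5 without WT IgG 1 and A159V IgG 5. The glucose and lactate transporters Slc2a1 (−0.42 ± 0.20) and Slc16a3 (0.15 ± 0.20), Hif1a (−0.33 ± 0.39), Hk2 (−0.17 ± 0.27) and Aldoc (0.02 ± 0.27) were among those with an unadjusted p above 0.05. So were Ifitm1 (0.77), S100a4 (0.17), Pla2g7 (−0.39), Prg4 (0.20) and Slc5a4a (−0.57), whose levels differed far more between genotypes than between treatments, as for Slc5a4a at 9.62, 9.24 and 6.73 CPM under IgG and 10.5, 7.91 and 5.12 under anti-PD1 in WT, and 35.3, 47.5 and 43.2 under IgG and 25.1, 23.6 and 29.5 under anti-PD1 in A159V.

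**Figure D5:**
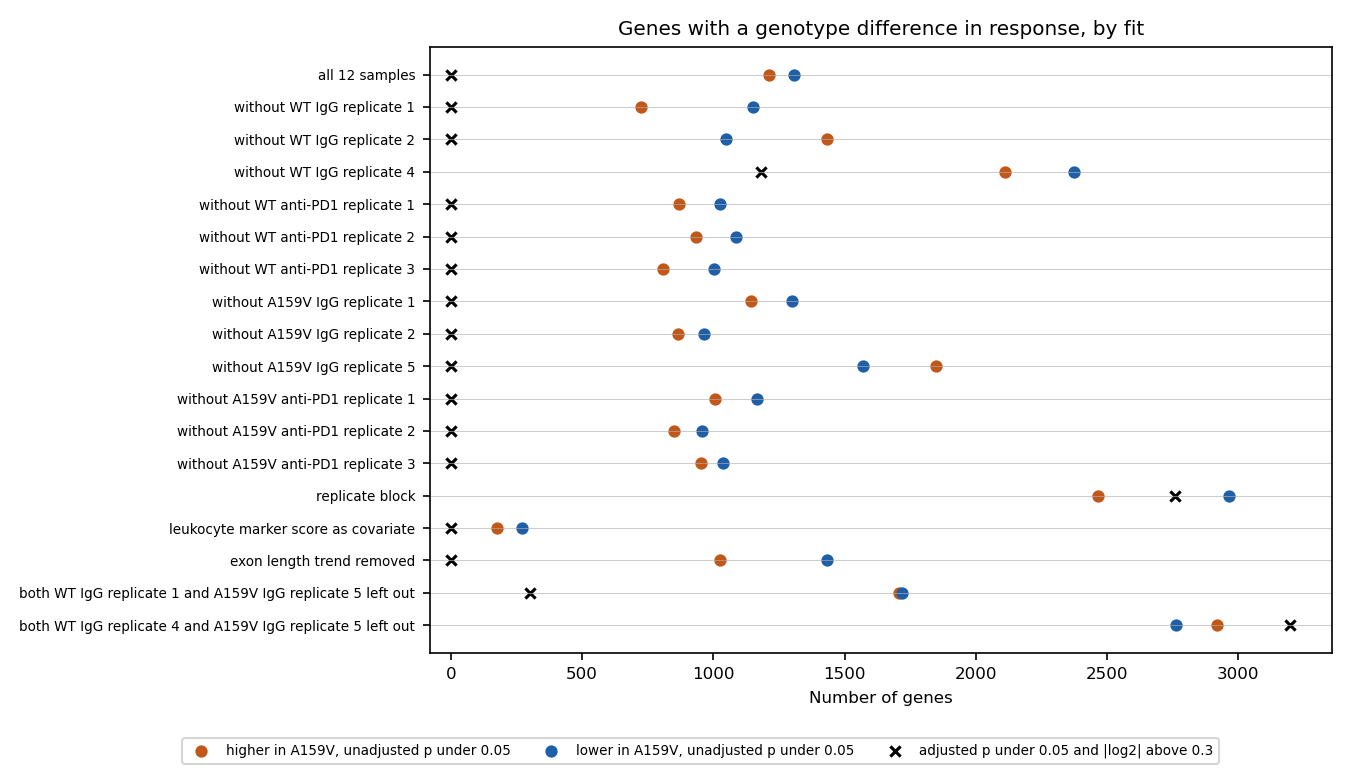
Number of genes (linear axis) called, as crosses, and with an unadjusted p under 0.05 above 0 (orange) and below 0 (blue) in the fit of all 12 samples and in the fits without libraries, with the replicate block, with the leukocyte covariate and with the length trend removed, 1 per line. Fits without a filter, by DESeq2 and by voom with sample quality weights, with 37, 294 and 3540 calls, are not drawn. The crosses drawn lie at 0 or 1 except at 1182 without WT IgG 4, 2760 with the replicate block, 301 without WT IgG 1 and A159V IgG 5 and 3197 without WT IgG 4 and A159V IgG 5.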

How the data were processed

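The data are RNA-seq counts of MC38 tumor cells isolated from 12 mice, in 4 groups of 3. Per the study's methods, tumors were digested with collagenase, tumor cells were isolated magnetically, polyA-selected libraries were sequenced from both ends at 100 bp, reads were aligned to mm10 with STAR, and the authors counted reads per gene with summarizeOverlaps, whose mode and strand setting are not given in the sources used here. The deposited table holds these whole-number counts, not normalized, with totals of 14053582 to 21949942. Groups and replicate numbers were taken from the labels.

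Genes were kept by filterByExpr, scaled by TMM and tested with edgeR 4.0.16 (quasi-likelihood, R 4.3.3) in 1 fit of all 12 samples with 8 residual degrees of freedom. The contrast was (A159V anti-PD1 minus A159V IgG) minus (WT anti-PD1 minus WT IgG). Adjusted p values are Benjamini-Hochberg over the 14340 genes kept, and a gene was called at an adjusted p under 0.05 and a log2 difference over 0.3 in size. The scripts were tested on simulated counts. Values of CPM use TMM-scaled totals. Gene positions and exon lengths are from GENCODE M21, and promoters from RefSeq.

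Named are the called gene, the 12 genes with the smallest p and the 6 with the largest difference (unadjusted p under 0.05) in each direction among genes with a mean of at least 1 CPM, the 3 members with the smallest p of each list with its receptors, ligands or defining markers, and 26 of the genes that the study names. Predicted genes and pseudogenes were skipped. Other list members are given as short values beside their list's count. A few list members are not reported here. Members and lists were chosen with earlier results of these data known, so lists carry counts and medians and no test.

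Replicate numbers are shared between groups of different mice. Over 13 pairs of samples with the same number, deviations from the group means correlated at −0.178 to 0.205, with 3 pairs over 0.1, so the numbers were not treated as pairing the samples. Alternatives were other scalings (RLE, upper quartile), no filter and a filter of 10 counts in every sample, DESeq2 1.42.0, voom with limma 3.58.1 with and without sample quality weights, each library left out, a replicate block, thinning to the smallest total, a leukocyte marker score as covariate, a length trend removed and, chosen after seeing the data, 2 pairs of libraries left out.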

Additional observations from a re-analysis of the deposited data

Results flagged for a closer look

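Errfi1, the inhibitor of the EGFR kinase, differed between the genotypes in its response to anti-PD1 by a test of the difference itself. The response was 1.19 in WT and −0.19 in A159V, a difference of −1.38 ± 0.17 (adjusted p = 0.0267) in edgeR's quasi-likelihood test with Benjamini-Hochberg adjustment. All 3 WT anti-PD1 samples, at 89.0, 87.0 and 98.3 CPM, were higher than the 3 WT IgG samples, which were of other mice. All 3 A159V anti-PD1 samples were lower than the 3 A159V IgG samples, again of other mice. Treatment groups did not overlap for 34.6% of all genes tested in WT and 11.0% in A159V. The groups of 3 are small, and the call depended on single libraries. Leaving out 1 library at a time gave −1.47 to −1.31 with adjusted p of 0.00639 to 0.208 in the same test, and 3 of the 12 fits passed the threshold.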

How the results depend on the processing

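The number of calls was the most dependent on the fit. It was 1 in the main analysis, 0 with upper-quartile factors, after thinning to the smallest total and with the leukocyte marker score as covariate, 37 without a filter on low counts, 294 by DESeq2, 2760 with the replicate block and 3540 by voom with sample quality weights. At an adjusted p under 0.1 it was 18. Leaving out 1 library at a time gave 0 to 1182, with 1182 without WT IgG 4, where all 1177 calls that the main analysis tested had the main sign. In the fit without WT IgG 2 the call was Nr4a3 (−3.14, adjusted p = 0.00855) and without A159V IgG 2 Stra6 (−2.45, adjusted p = 0.0293). Without WT IgG 1 and A159V IgG 5 there were 301 calls, and without WT IgG 4 and A159V IgG 5 3197, both chosen after seeing the data.

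Genes above 0 at an unadjusted p under 0.05 numbered 2600 with quality weights, 2464 with the replicate block, 177 with the leukocyte covariate, 2917 without WT IgG 4 and A159V IgG 5, and 724 to 2112 leaving out 1 library. Those below 0 numbered 3034, 2963, 272, 2762, and 957 to 2375. The block gives WT IgG 4 and A159V IgG 5, whose numbers no other sample has, a level of their own. The same numbers are carried by different mice.

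Errfi1 missed the threshold with upper-quartile factors (−1.33, adjusted p = 0.0503), after thinning (−1.32, adjusted p = 0.0615) and with the leukocyte covariate (−1.51, adjusted p = 1), and its range leaving out 1 library was −1.47 to −1.31. For the other 150 named genes with an unadjusted p under 0.05, 3131 of 3720 values kept direction and side of the threshold, 581 newly passed it and 8 changed sign. With the leukocyte covariate the 5 were Il2rb (0.13), Dock2 (0.50), Laptm5 (0.90), Nfkbia (−0.027) and Ccl8 (−0.10), and with quality weights the 3 were Cxcl12 (−1.18), Mmp3 (−1.89) and Loxl1 (−0.18). The cause was not tested. List medians kept their sign in 38 to 46 of the 46 lists, with 38 under the leukocyte covariate. Low counts limit markers of other cell types, since 3 counts per library correspond to 0.137 to 0.213 CPM. The standard errors of log2 differences were computed as the size of the difference divided by the square root of the quasi-likelihood F statistic. They include the spread between mice of a group. That spread was estimated per gene over all groups together, so it does not describe each group separately.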
